A study of Mus musculus with 23 samples.

Results

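The genes described here build and finish the extracellular matrix: collagens, laminins, nidogens, perlecan, fibronectin, elastin, small proteoglycans, and the enzymes that modify, trim and crosslink collagen. They were chosen by symbol among the protein-coding genes of the count tables. The rule took every collagen chain gene (Col, a number, a and a number), every laminin chain gene (Lama, Lamb or Lamc with a number), and Nid1, Nid2, Hspg2, Fn1, Eln, Bgn, Dcn, Lum, Lox, Loxl1 to Loxl4, Pcolce, Pcolce2 and Plod1 to Plod3. It found 73 genes among the 38293 counted, and 63 of them passed the filter on low counts and were tested. Those 73 were 11 fibrillar collagens, 22 basement membrane genes, 25 other collagens, 5 genes for glycoproteins, elastin and small proteoglycans, and 10 enzyme genes.

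RNA was measured in 23 libraries of primary astrocytes, the star-shaped glia of the brain, grown for 7 days from the neocortex of mouse pups at postnatal day 3. The pups had a hybrid background made of BALB/c+C57BL/6 and, besides, 129/OLa+129/Sv+, the meninges and vessels had been removed by forceps, and astrocytes were stated to exceed 95% of the cells. All cultures spent 24 h in medium with 0.1% serum stripped of thyroid hormone before treatment. The groups of 4 libraries were the 6 h control, 6 h with 10 nM T3 (triiodothyronine, the active thyroid hormone), 6 h with 8 µg/ml CHX, 6 h with both agents, and the 24 h control. The group kept for 24 h in 10 nM T3 had 3. The abbreviation CHX is taken to mean cycloheximide, which blocks protein synthesis, and it was added 30 min ahead of T3. The labels do not say that replicates came from different cultures or animals. The p-values therefore reflect only how these libraries vary, which may be technical variation.

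Collagens are trimers of alpha chains that form a triple helix. Fibrillar collagens such as types I and III assemble into fibres, whereas type IV collagen forms the sheet-like network of basement membranes, to which laminins, nidogens and the proteoglycan perlecan bind. Inside the cell, lysyl hydroxylases (Plod genes) hydroxylate lysines of the chains, and outside it procollagen C-proteinase enhancers (Pcolce genes) help to remove the propeptides before lysyl oxidases (Lox and Loxl genes) crosslink the chains. Astrocytes contribute basement membrane at the surface of the brain and around its vessels, and thyroid hormone acts on genes through nuclear receptors.

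Libraries held 13843040 to 22997873 counts in genes. The summed level of 12 astrocyte markers was 8410 to 13700 CPM (counts relative to the scaled size of the library) over all libraries. Among markers of other cells, 9 endothelial genes summed to 19.3 to 69.4 CPM, most of it Kdr (mean 33.1), with Pecam1 at no more than 0.97 and Cldn5 at no more than 1.48. A set of 14 fibroblast and meningeal markers summed to 73.1 to 205 CPM. Pdgfra, which oligodendrocyte precursors also express, was the largest part of that sum on average (mean 73.1, but 33.4 in 6 h CHX with T3, where Osr1 was at 21.6), while Slc6a13, Slc22a6, Slc47a1, Dpt and Twist2 stayed under 1 CPM in every library. The 9 mural markers summed to 2110 to 3930 CPM, carried by Acta2 (mean 1710) and Tagln (mean 840), while Kcnj8 was at most 0.285. In such bulk samples, fewer cells of a type and less RNA per cell cannot be told apart.

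Several libraries stood apart in these genes and bear on the results. In 6 h control replicate 3, Col1a1 was at 238 CPM, against 80.5 to 91 in the other 6 h controls. Among 6 h CHX libraries, replicate 3 was high (Col1a1 160 CPM) and replicate 4 low (27.3). Replicate 4 had the highest fibroblast and meningeal marker sum of the 4 (118 CPM, against 81.8, 83 and 89.3), although its Col1a1 was the lowest. In 24 h control replicates 2 and 4, Col3a1 was at 95 and 76.7 CPM, against 29.7 and 29.5 in replicates 1 and 3. Those 2 libraries also had more of the 14 fibroblast and meningeal markers (202 and 205 CPM against 127 and 110) and of the 8 microglial markers (65.8 and 76.9 CPM against 41.4 and 33.3). The same held for the oligodendrocyte lineage (880 and 941 against 753 and 714 CPM), neuronal (161 and 175 against 141 and 134) and astrocyte markers (12800 and 12300 against 11200 and 10800). The mural sum was lower in those libraries (2390 and 2580 against 2810 and 3130 CPM), and the endothelial sum overlapped (26.8 and 32.8 against 30.9 and 36). By the lane in the file names, lane 5 held the 6 h controls, the 6 h T3 group and CHX replicates 1 to 3. Lane 7 held replicate 3 of 24 h T3, and the rest were on lane 6.

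As a share of all scaled counts, the 73 genes made up 0.873% in 6 h control (range 0.784 to 1.04%), 0.854% in 6 h T3, 0.657% in 6 h CHX, 0.725% in 6 h CHX with T3, 0.683% in 24 h control and 0.666% in 24 h T3. Per kb of exon, fibronectin (Fn1), the cell-adhesive glycoprotein, led in 6 h control with 117 CPM per kb. It was followed by Lamb2 and Lamc1, both at 102, and then by Loxl1 (53.9), Lama5 (51.1), Col12a1 (50), Col4a5 (47.9), Col5a2 (43.4) and Plod2 (40.9). Lama5, Lamb2 and Lamc1 encode an alpha, a beta and a gamma chain that can join in 1 laminin. The chains of type I collagen, Col1a1 and Col1a2, were lower, at 18.9 and 19.1 CPM per kb, and Lamb1 stood at 0.02 ± 0.000984 (SD, n = 4) of Lamb2. At the other end, 12 genes had a mean under 1 CPM in all 6 groups. The 10 that were not tested, all at 116 counts or fewer over 23 libraries, were Col6a4, Col6a5, Col6a6, Col10a1, Col13a1, Col14a1, Col19a1, Col24a1, Col25a1 and Col28a1.

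The sum over the 10 enzyme genes separated T3 from control at both times. It was 767 to 829 CPM in 6 h control and 906 to 933 in 6 h T3, and 609 to 657 in 24 h control and 864 to 916 in 24 h T3. At 6 h Plod2 carried most of that difference (221 to 320 CPM, in a sum of 785 to 922), 7 of the 10 genes did not pass the test, and the median change was 0.04. The sum over fibrillar collagens overlapped at 6 h (1050 to 1650 against 1120 to 1340 CPM) and at 24 h (1040 to 1250 against 921 to 1080). The 8 basement membrane collagens summed to 752 to 864 CPM in 24 h control and 688 to 875 in 24 h T3, and the 11 laminins to 1430 to 1700 and 1270 to 1600, so both overlapped. With CHX, the basement membrane collagens (512 to 607 CPM) and the enzymes (590 to 665) lay below every 6 h control (840 to 1060 and 767 to 829).

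T3 at 6 h raised 4 of the 63 tested genes and lowered none: Pcolce2, Plod2 and Loxl2 among the enzymes, and the short-chain collagen Col8a1. After 24 h T3 raised 10 and lowered 7, and 46 did not pass. All 4 genes raised at 6 h were also raised at 24 h, and the 2 comparisons share no library. Of the 10 enzyme genes, 3 rose at 6 h and 5 at 24 h, with none lower (at an unadjusted p under 0.05 none was lower either, and DESeq2 called none lower). Genes called at 6 h made up 3.77% of all 16087 tested (2.61% higher and 1.16% lower), and 6.35% of the 63. At 24 h they made up 7.09% of all (4.41% higher and 2.68% lower), and 27% of the 63. The count of 0 lower at 6 h stood beside 2 lower at an unadjusted p under 0.05 and 0 with DESeq2. The median change of the 63 was 0 at 6 h and -0.06 on the log2 scale at 24 h, beside 0 for all genes at each time. All tests are edgeR quasi-likelihood F tests with Benjamini-Hochberg adjustment over all genes, and a change is given as log2 fold change with its standard error (SE). At 24 h, leaving out control replicates 2 and 4 together left 10 higher and 3 lower, and the libraries of lane 6 alone gave 5 higher and 2 lower. The lane 6 fit takes its spread from those 24 h libraries alone. Leaving only the lane 7 library, T3 replicate 3, out of the fit of all groups gave 11 higher and 6 lower. That run kept the calls of Plod2, Plod1, Col4a4 and Lama4, which were lost within lane 6.

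Pcolce2, the procollagen C-proteinase enhancer 2 gene, changed most among the enzymes. Its level was 9.84, 13.4, 13.9 and 11.8 CPM in 6 h control and 31, 34.8, 29.6 and 30.4 in 6 h T3. The 24 h values were 15.8, 12.3, 11.4 and 11.1 CPM in control and 58.5, 50.1 and 50.7 with T3. Every T3 library lay above every control of its time. The change was 1.36 (SE 0.12) at 6 h, or 2.56-fold (adjusted p = 6.8e-08), and 2.07 (SE 0.13) at 24 h, or 4.2-fold (adjusted p = 2.7e-11). The related Pcolce did not pass the test, at -0.25 (SE 0.12; adjusted p = 0.308) at 6 h and 0.35 (SE 0.13; adjusted p = 0.112) at 24 h.

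Plod2, the lysyl hydroxylase that acts on collagen telopeptides, was at 222, 217, 219 and 224 CPM in 6 h control and at 326, 298, 310 and 345 in 6 h T3. At 24 h the controls were lower, at 147, 131, 142 and 120 CPM, and T3 libraries were at 175, 215 and 223. The groups did not overlap at either time, and Plod2 rose 1.45-fold at 6 h (0.54, SE 0.07; adjusted p = 2.8e-05) and 1.51-fold at 24 h (0.60, SE 0.08; adjusted p = 7.5e-06). In the fit of lane 6 alone, the 24 h change was 0.52 with an adjusted p of 0.053. The call was kept when only T3 replicate 3 of lane 7 was left out of the fit of all groups. Plod1, a helical lysyl hydroxylase, was at 104, 114, 99.1 and 106 CPM in 24 h control and at 143, 133 and 131 in 24 h T3. It rose 1.29-fold at 24 h (0.36, SE 0.05; adjusted p = 6.7e-05; 0.0647 within lane 6), while at 6 h the change was 0.03 (95% interval -0.07 to 0.13). Plod3 gave 0.04 (interval -0.08 to 0.15) and 0.01 (interval -0.11 to 0.14).

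Of the lysyl oxidases, Loxl2, known for crosslinking type IV collagen, was at 37.1, 40.6, 41.1 and 35.4 CPM in 6 h control and at 47.4, 46.9, 48.3 and 52 in 6 h T3. The 24 h values were 49.9, 44.9, 55.2 and 40.6 CPM in control and 88.9, 101 and 92 with T3. It rose 1.26-fold at 6 h (0.33, SE 0.08; adjusted p = 0.0194) and 1.97-fold at 24 h (0.98, SE 0.09; adjusted p = 1.4e-08). The 6 h call was lost without control replicate 1 (adjusted p = 0.0621), control replicate 4 (0.0633) or T3 replicate 4 (0.0894). Loxl1, which acts on elastin, was at 145, 144, 144 and 135 CPM in 24 h control and at 231, 201 and 175 in 24 h T3, a 1.42-fold rise (0.50, SE 0.09; adjusted p = 0.00032). At 6 h Loxl1 gave 0.05 (interval -0.11 to 0.21). Loxl3, Loxl4 and Lox itself did not pass the test at either time. Lox, the founding member of the family, was at 20.7, 20.2, 41 and 22.4 CPM in 6 h control and at 33.4, 21.6, 23.9 and 24.7 in 6 h T3. At 24 h it was at 19.4, 36.2, 17.4 and 26.1 CPM in control and at 18, 22.1 and 21.8 with T3, so its libraries overlapped at both times. Genes on the other strand share exon bases with Loxl2, Plod2, Plod3 and Lox, and likewise with Col4a1, Col4a2, Col4a3, Nid1, Fn1, Eln and Col9a3. The kit marks no strand, so reads in such stretches cannot be told apart.

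**Figure D1:**
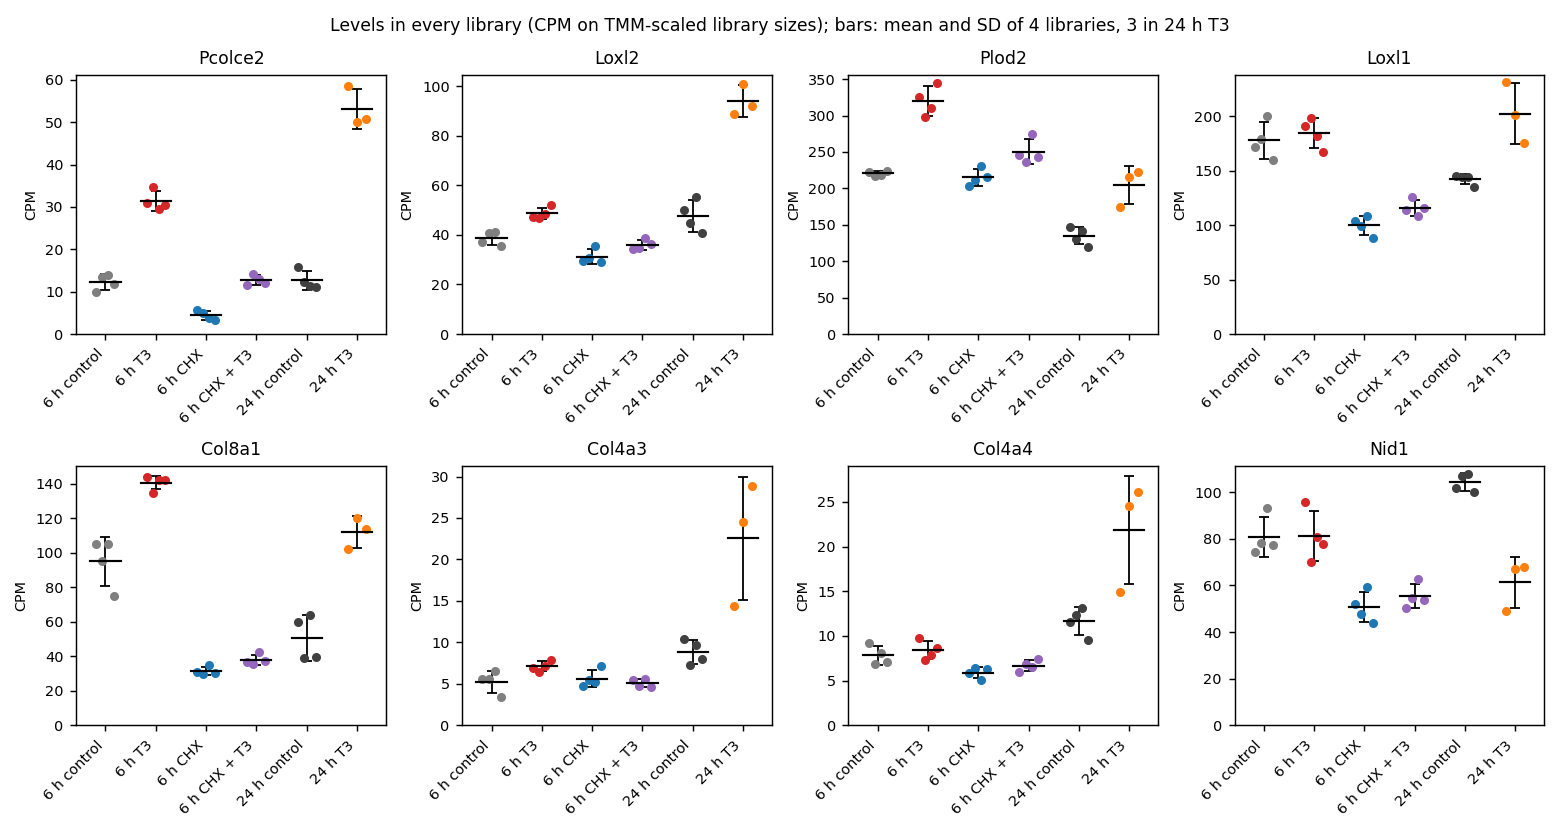
Levels of 8 genes in each of the 23 libraries, in CPM on TMM-scaled library sizes, with 1 point per library and the mean and SD of each group as bars. Pcolce2, Loxl2, Plod2, Loxl1, Col8a1, Col4a3 and Col4a4 lie higher in every 24 h T3 library than in any 24 h control, and Nid1 lies lower (48.9 to 67.8 against 100 to 108 CPM).

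**Figure D2:**
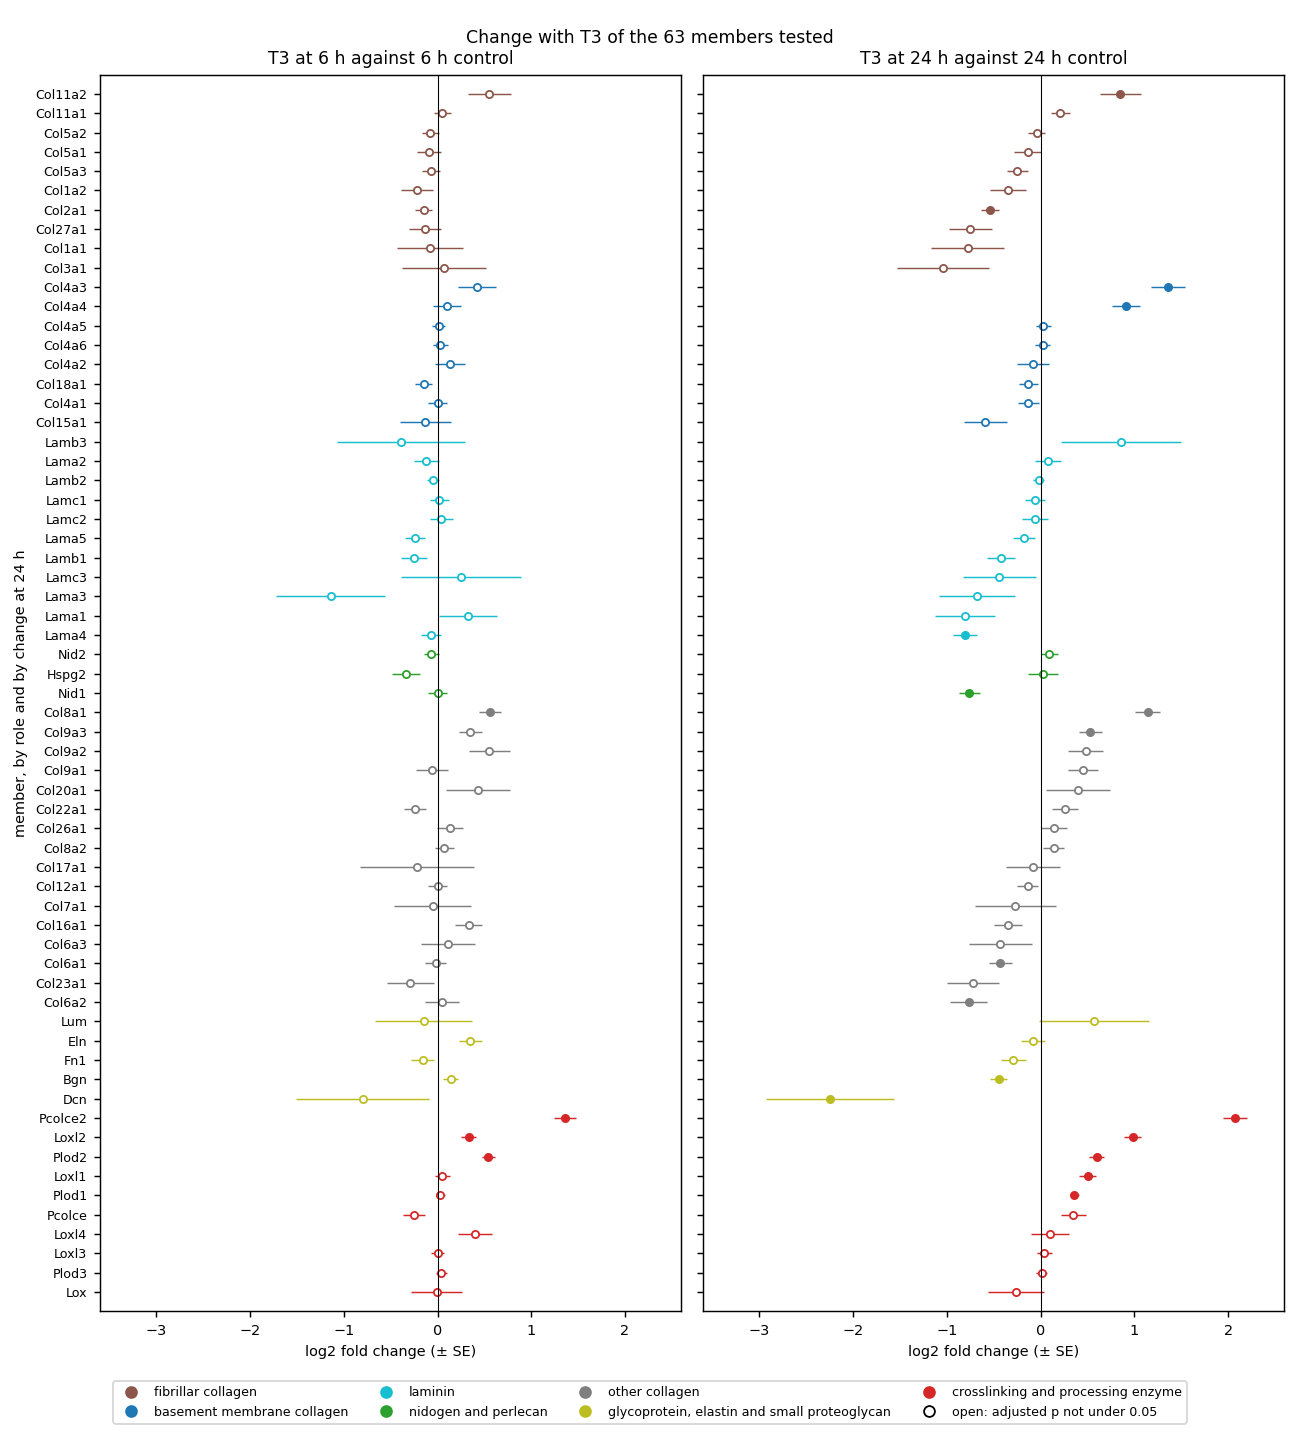
Log2 fold change with its SE for the 63 tested genes at 6 h and 24 h of T3, ordered by role, with filled points for an adjusted p under 0.05. The enzymes at the bottom hold 3 filled points at 6 h and 5 at 24 h, all to the right of 0.

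Of the 10 fibrillar collagens tested, 1 rose and 1 fell at 24 h (20% called, beside 7.09% of all genes). None was called at 6 h, beside 3.77% of all genes (1 had an unadjusted p under 0.05, and DESeq2 called none). The median change was -0.08 at 6 h and -0.30 at 24 h. Col2a1, best known from cartilage, was 79.0 CPM in 24 h control and 54.6 in 24 h T3, with no overlap, and fell by 0.54 (SE 0.1; adjusted p = 0.00111). Col11a2, which joins Col2a1 in cartilage fibres, was at 5.53, 10.6, 5.32 and 9.88 CPM in 24 h control and at 12.3, 15.1 and 15.1 with T3. Its rise of 0.85 (SE 0.22; adjusted p = 0.0166) was lost without control replicate 1 (adjusted p = 0.0626), control replicate 3 (0.0601) or T3 replicate 2 (0.0544).

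The type I and III chains show how much single libraries weigh. Col1a1 was at 87, 80.5, 238 and 91 CPM in 6 h control and at 167, 110, 97.8 and 94 in 6 h T3. At 24 h it was at 102, 180, 107 and 125 CPM in control and at 66, 85.9 and 73.1 with T3. All 3 of the T3 libraries at 24 h lay below all 4 controls, yet the difference of -0.78 (SE 0.39) did not pass the test (adjusted p = 0.265). Col1a2 was at 214, 213, 322 and 200 CPM in 6 h control, 232, 201, 192 and 188 in 6 h T3, 185, 244, 206 and 184 in 24 h control, and 155, 172 and 154 in 24 h T3. Its differences were -0.22 (SE 0.17; adjusted p = 0.561) and -0.35 (SE 0.19; adjusted p = 0.287). Col3a1 was at 23, 21.1, 67 and 26.2 CPM in 6 h control and at 46.4, 32.3, 34.3 and 31.8 in 6 h T3. Its 24 h controls were split, with 29.7, 95, 29.5 and 76.7 CPM, while T3 libraries were at 27.7, 28.9 and 27.9. The 24 h difference of -1.04 (SE 0.49; adjusted p = 0.226) lay in control replicates 2 and 4, since replicates 1 and 3 were less than 1 CPM above the highest T3 library.

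Decorin (Dcn), a small leucine-rich proteoglycan of collagen fibrils, was called lower at 24 h on the same 2 libraries. It was at 1.07, 11.5, 1.38 and 6.91 CPM in 24 h control and at 1.39, 1.08 and 0.884 in 24 h T3. The fall of 2.25 (SE 0.68; adjusted p = 0.0453) became -0.19 (adjusted p = 0.927) without control replicates 2 and 4, and the call was also lost without replicate 2 (adjusted p = 0.236), replicate 4 (0.105) or any 1 T3 library (0.0716 to 0.102). Biglycan (Bgn), a relative of decorin, fell by 0.45 (SE 0.09; adjusted p = 0.00209), from 162 ± 16.1 CPM (SD, n = 4) to 118 ± 4.13 (SD, n = 3), and gave -0.35 (adjusted p = 0.0607) without both control libraries. The fibroblast and meningeal markers were higher in those 2 libraries, as given above, and their part in these differences was not tested. Fn1 was at 1220, 1300, 1740 and 1200 CPM in 6 h control and at 1450, 1050, 1190 and 1210 in 6 h T3. The 24 h values were 844, 888, 951 and 766 CPM in control and 582, 794 and 745 with T3, and its changes of -0.16 (SE 0.12) and -0.29 (SE 0.13) did not pass the test (adjusted p = 0.539 and 0.189). Elastin (Eln) gave -0.08 at 24 h (interval -0.33 to 0.17).

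**Figure D3:**
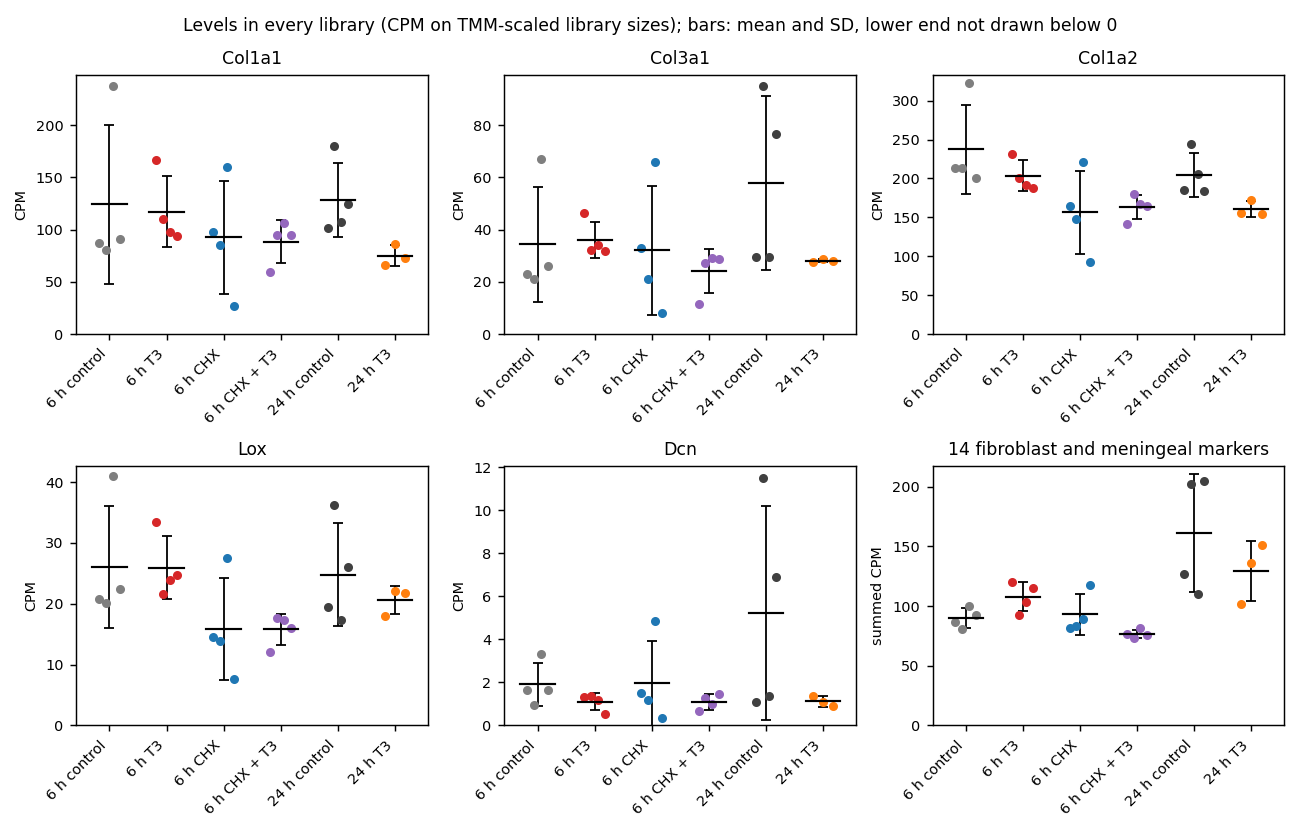
Levels of Col1a1, Col3a1, Col1a2, Lox and Dcn and the summed level of 14 fibroblast and meningeal markers in each library, in CPM, with the mean and SD of each group; the lower end of a bar is not drawn below 0. A single library of 6 h control is high in 4 of the genes (238, 67, 322 and 41 CPM), and 2 of the 24 h controls are high in Col3a1, Dcn and the marker sum.

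Among the 22 basement membrane genes, all of them tested, T3 at 24 h raised 2 chains of type IV collagen and lowered a nidogen and a laminin chain. That is 18.2% called, beside 7.09% of all genes. At 6 h none was called, beside 3.77% of all genes (3 had an unadjusted p under 0.05, and DESeq2 called none). Col4a3 and Col4a4 encode the chains that, with Col4a5, form the type IV collagen of the mature kidney filter. Col4a3 was at 10.4, 7.3, 9.68 and 8.05 CPM in 24 h control and at 14.4, 24.5 and 28.8 with T3, after 5.57, 5.55, 6.52 and 3.41 in 6 h control and 6.92, 6.45, 7.21 and 7.93 in 6 h T3. It rose 2.56-fold at 24 h (1.36, SE 0.18; adjusted p = 1.2e-05), and its 6 h change of 0.42 (SE 0.2) did not pass (adjusted p = 0.276). Col4a4 was at 11.6, 12.4, 13.1 and 9.53 CPM in 24 h control and at 14.9, 24.5 and 26.1 with T3. It rose 1.88-fold (0.91, SE 0.15; adjusted p = 0.00015), with 0.75 and an adjusted p of 0.118 within lane 6. In both genes 24 h T3 replicate 1 was the lowest of the 3 T3 libraries, and at 6 h Col4a4 gave 0.10 (interval -0.20 to 0.40).

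The other 4 type IV chains, which are far more abundant, did not pass the test at either time. Col4a1 was at 186, 195, 257 and 170 CPM in 6 h control and at 224, 196, 202 and 185 in 6 h T3. By 24 h it was at 182, 179, 187 and 177 CPM in control and at 148, 180 and 171 with T3, a change of -0.13 (interval -0.35 to 0.1). Col4a2 was at 59.5, 57.1, 94.2 and 44.1 CPM in 6 h control, 82.1, 67.1, 68.6 and 61.3 in 6 h T3, 71.6, 82, 74.6 and 74.7 in 24 h control and 67.2, 73.7 and 74.5 in 24 h T3. These libraries overlapped, with a change of -0.08 at 24 h (interval -0.42 to 0.27). Col4a5 and Col4a6 gave 0.03 (interval -0.12 to 0.19) and 0.02 (interval -0.15 to 0.18) at 24 h. Per kb of exon, Col4a3 went from 0.89 to 2.26 CPM per kb and Col4a4 from 1.1 to 2.06 at 24 h, while Col4a1 was at 24.3 and 22.3 and Col4a5 at 39.3 and 40.3.

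The 6 type IV genes lie in 3 pairs, each read in opposite directions from neighbouring starts. Col4a1 and Col4a2 on chromosome 8 start so close that their transcripts overlap by 22 bases, Col4a3 and Col4a4 on chromosome 1 start 72 bases apart, and Col4a5 and Col4a6 on chromosome X start 1309 bases apart. RefSeq's promoter windows (GRCm38.p6, 250 bases before to 50 after the start) are shown for the first pair because the windows of both genes share 78 bases, given in capitals. They lie at chr8:11312777-11313076 on the minus strand and chr8:11312555-11312854 on the plus strand.

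Col4a1: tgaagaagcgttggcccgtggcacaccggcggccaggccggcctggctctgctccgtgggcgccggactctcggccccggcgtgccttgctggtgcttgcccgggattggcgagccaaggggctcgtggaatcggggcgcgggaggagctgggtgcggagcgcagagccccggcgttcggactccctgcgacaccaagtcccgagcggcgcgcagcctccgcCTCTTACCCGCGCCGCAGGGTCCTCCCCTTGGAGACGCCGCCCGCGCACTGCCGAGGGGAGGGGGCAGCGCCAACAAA
Col4a2: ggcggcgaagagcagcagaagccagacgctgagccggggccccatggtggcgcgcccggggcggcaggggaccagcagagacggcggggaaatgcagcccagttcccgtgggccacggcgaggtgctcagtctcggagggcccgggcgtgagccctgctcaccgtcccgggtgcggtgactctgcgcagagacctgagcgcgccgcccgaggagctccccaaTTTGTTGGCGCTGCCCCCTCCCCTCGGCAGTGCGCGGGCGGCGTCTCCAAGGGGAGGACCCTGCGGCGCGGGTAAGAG

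The window of Col4a4, chr1:82586800-82587099 on the minus strand, is shown because Col4a3 and Col4a4 rose together and the window also holds the start of Col4a3 as GENCODE M21 places it, at position 82586921. Capitals mark AGGTCA, the half-site that nuclear receptors such as the thyroid hormone receptors are known to bind, searched on both strands. It lies at chr1:82586934-82586939, 13 bases after the Col4a3 start and 90 bases before the start of Col4a4.

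Col4a4: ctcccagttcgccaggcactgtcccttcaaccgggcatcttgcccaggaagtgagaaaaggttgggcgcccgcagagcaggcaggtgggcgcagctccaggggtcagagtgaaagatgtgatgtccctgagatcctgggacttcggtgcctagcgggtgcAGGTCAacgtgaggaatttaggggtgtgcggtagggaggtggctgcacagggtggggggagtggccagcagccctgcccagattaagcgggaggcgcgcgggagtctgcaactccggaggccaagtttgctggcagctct

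The same search found the half-site in 8 of the 52 windows of these genes (15.4%; 48 of the 73 genes have a window in the table) and in 16.3% of all 32851 windows. The windows of the most responsive enzyme and of Col8a1, at chr9:95637378-95637677 (plus strand) and chr16:57754688-57754987 (minus strand), held none and are printed in lower case throughout. A match or its absence in these letters says nothing about binding, and no entry was in the table for Col4a3, Loxl2, Plod2 and Lama4.

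Pcolce2: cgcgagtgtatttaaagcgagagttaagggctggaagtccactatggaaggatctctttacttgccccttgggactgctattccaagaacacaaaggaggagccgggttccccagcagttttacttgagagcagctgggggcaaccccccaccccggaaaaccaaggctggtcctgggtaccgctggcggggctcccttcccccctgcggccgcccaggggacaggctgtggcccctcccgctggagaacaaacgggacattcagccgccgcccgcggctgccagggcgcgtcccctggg
Col8a1: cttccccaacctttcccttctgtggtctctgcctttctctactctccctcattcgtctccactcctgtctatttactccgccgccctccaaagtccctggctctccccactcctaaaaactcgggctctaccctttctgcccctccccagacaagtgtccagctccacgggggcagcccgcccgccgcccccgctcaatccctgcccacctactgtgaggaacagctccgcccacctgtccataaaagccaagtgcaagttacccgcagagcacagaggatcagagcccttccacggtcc

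Nidogen 1 (Nid1), which links laminin to type IV collagen, fell at 24 h. It was at 102, 107, 108 and 100 CPM in 24 h control and at 48.9, 67.2 and 67.8 with T3, a fall of 0.76 (SE 0.11; 1.7-fold; adjusted p = 6.5e-05). At 6 h it was at 74.5, 78.1, 93.4 and 77.5 CPM in control and at 95.8, 70, 81 and 77.8 with T3, and did not pass the test (0, interval -0.20 to 0.21; adjusted p = 0.989). Its relative Nid2 and perlecan (Hspg2) gave 0.09 (interval -0.09 to 0.27) and 0.02 (interval -0.29 to 0.33) at 24 h. Lama4, the alpha chain of laminins found in vessel walls, fell by 0.81 (SE 0.13; adjusted p = 0.00024), from 14.2 ± 2.77 CPM (SD, n = 4) to 8.16 ± 0.664 (SD, n = 3), and had an adjusted p of 0.0855 within lane 6. The other 10 laminin chains did not pass the test. Lamb1 was at 19.7, 21.8, 25.5 and 25.3 CPM in 24 h control and at 17.3, 19.2 and 15.5 with T3, without overlap (-0.42, SE 0.15; adjusted p = 0.0943). At 6 h it was at 20, 18.8, 24 and 18 CPM in control and at 21.4, 16, 16.5 and 14.3 with T3. Lamc1, the gamma chain of most laminins, was at 838, 799, 902 and 848 CPM in 6 h control and at 936, 739, 843 and 909 in 6 h T3. At 24 h it was at 477, 413, 541 and 414 CPM in control and at 333, 509 and 480 with T3 (-0.06; interval -0.28 to 0.15).

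**Figure D4:**
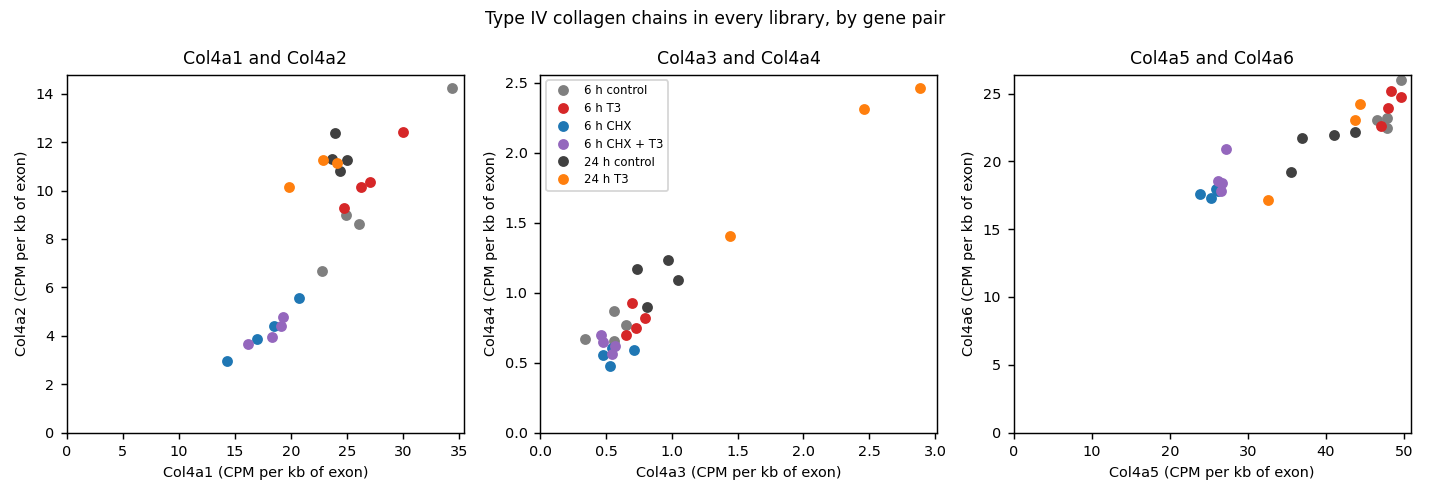
Levels per kb of exon of the 2 genes of each type IV collagen pair, with 1 point per library and colours for the 6 groups. The Col4a3 and Col4a4 panel shows the 3 libraries of 24 h T3 at its upper right, and in the other 2 panels the libraries with CHX, alone or with T3, lie lowest in Col4a2 and in Col4a5.

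Among the other collagens, Col8a1, a short-chain collagen of vessel walls and the eye, rose at both times. It was at 105, 95.1, 105 and 75.1 CPM in 6 h control and at 144, 135, 142 and 142 in 6 h T3. By 24 h it was at 59.8, 39.2, 64.2 and 39.6 CPM in control and at 102, 120 and 114 with T3. The rise was 1.48-fold at 6 h (0.56, SE 0.12; adjusted p = 0.00606) and 2.21-fold at 24 h (1.14, SE 0.13; adjusted p = 1.3e-06). Col9a3, a chain of the fibril-associated type IX collagen, rose 1.44-fold at 24 h (0.53, SE 0.12; adjusted p = 0.00803), a call that was lost without T3 replicate 1 (adjusted p = 0.0675). The other type IX chains, Col9a1 and Col9a2, gave 0.45 (SE 0.16; adjusted p = 0.096) and 0.48 (SE 0.19; adjusted p = 0.141). Col6a1 and Col6a2, chains of the microfibrillar type VI collagen, fell by 0.43 (SE 0.12; adjusted p = 0.0276) and 0.77 (SE 0.2; adjusted p = 0.0153). Without control replicates 2 and 4 they gave -0.28 (adjusted p = 0.334) and -0.53 (adjusted p = 0.262). Both calls were also lost without control replicate 4 alone (0.0886 and 0.0613) or T3 replicate 1 alone (0.0657 and 0.0582), and that of Col6a1 without control replicate 2 (0.0753) or T3 replicate 3 (0.066).

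The T3 effect itself differed between 24 h and 6 h for 5 of the 63 genes (7.94%; 2 higher and 3 lower), against 0.839% of all genes tested (0.541% higher and 0.298% lower). Loxl2 (0.64, SE 0.12; adjusted p = 0.00784) and Plod1 (0.33, SE 0.08; adjusted p = 0.0324) had a larger rise at 24 h. Nid1 (-0.77, SE 0.15; adjusted p = 0.0137), Bgn (-0.60, SE 0.12; adjusted p = 0.0175) and Lama4 (-0.74, SE 0.18; adjusted p = 0.0451) were lower in the 24 h effect than in the 6 h effect. Pcolce2 (0.71, SE 0.18; adjusted p = 0.0546), Col4a3 (0.94, SE 0.27; adjusted p = 0.104), Col4a4 (0.81, SE 0.21; adjusted p = 0.0714) and Col8a1 (0.58, SE 0.18; adjusted p = 0.124) did not pass. The call of Plod1 was lost without 24 h control replicate 1 or 4, 24 h T3 replicate 1, 6 h control replicate 2 or 4, or 6 h T3 replicate 1, 3 or 4 (adjusted p = 0.0569 to 0.084). That of Lama4 was lost without 24 h control replicate 2 or 4, 24 h T3 replicate 2, 6 h control replicate 1, 2 or 4, or 6 h T3 replicate 1, 3 or 4 (0.0666 to 0.118), and that of Bgn without 6 h T3 replicate 1 (0.0503). Without 24 h control replicates 2 and 4, only 1 gene of the 63 was called, and Loxl2 and Nid1 had an adjusted p of 0.0812 and 0.0741. The count of 5 fell to 2 without 6 h T3 replicate 1 and to 3 without 24 h control replicate 4, 6 h control replicate 2, 6 h T3 replicate 3 or 6 h T3 replicate 4, and rose to 8 without 24 h T3 replicate 3 or 6 h control replicate 3.

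CHX alone lowered 32 of the 63 genes and raised 6, while 67.5% of all genes tested were called, 30.6% lower and 37% higher. The lower share was 50.8% of the 63, and their median change was -0.29, beside 0.06 for all genes. This comparison uses the same 6 h controls as T3 at 6 h. Cell type markers moved with CHX as well. Of 12 astrocyte markers 9 were lower (sums of 8680 to 10300 against 11700 to 12600 CPM), the oligodendrocyte lineage sum was 501 to 531 against 821 to 929, and the endothelial sum 58.8 to 66.7 against 19.3 to 22.5, most of it Kdr. Their part in the result was not tested. Lower genes were found in each role: 6 of 10 enzymes, 6 of 8 basement membrane collagens, 4 of 11 laminins, 2 of 3 in nidogen and perlecan, 4 of 10 fibrillar collagens, 8 of 16 other collagens and 2 of 5 glycoproteins and proteoglycans. The largest fall was that of Col8a1, to 31.1, 29.8, 35.1 and 30.4 CPM, 3.02-fold below 6 h control (-1.59, SE 0.13; adjusted p = 5.4e-11). Pcolce2 fell 2.73-fold, to 5.61, 5.06, 3.83 and 3.4 CPM (-1.45, SE 0.15; adjusted p = 3.3e-09). Loxl1, at 172, 179, 200 and 160 CPM in 6 h control, was at 104, 99, 108 and 87.9 with CHX (-0.83, SE 0.08; adjusted p = 1.9e-09). Plod3, a lysyl hydroxylase that also glycosylates collagen, went from 156, 147, 160 and 170 to 111, 105, 114 and 113 CPM (-0.51, SE 0.06; adjusted p = 2.4e-08). Plod2 was at 203, 211, 231 and 215 CPM, a change of -0.04 (interval -0.18 to 0.1).

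Within the basement membrane, the 2 chains of a pair fell unequally in Col4a1 and Col4a2 and in Col4a5 and Col4a6. Col4a2 fell 2.3-fold (-1.20, SE 0.17; adjusted p = 1e-06), to 29.2, 25.7, 36.8 and 19.6 CPM, and Col4a1 1.53-fold (-0.62, SE 0.11; adjusted p = 1.6e-05), to 138, 127, 155 and 107 CPM. The ratio of Col4a1 to Col4a2 per kb was 2.91 ± 0.423 (SD, n = 4) in 6 h control and 4.28 ± 0.46 (SD, n = 4) with CHX, with no overlap. Col4a5 fell from 321, 313, 333 and 321 to 174, 176, 170 and 160 CPM (-0.92, SE 0.07; adjusted p = 4.2e-11), and Col4a6 by 0.43 (SE 0.08; adjusted p = 3.9e-05). Their ratio per kb went from 2.03 ± 0.0893 (SD, n = 4) to 1.44 ± 0.0566 (SD, n = 4), again with no overlap. Lamb2, the beta chain of mature laminins, went from 603, 620, 703 and 552 to 443, 452, 447 and 433 CPM (-0.48, SE 0.06; adjusted p = 4.9e-08). Lamc1 was at 602, 597, 630 and 569 CPM with CHX (-0.50, SE 0.1; adjusted p = 0.00014), whereas Lamb1, at 22.1, 19.2, 23.6 and 14, did not pass the test (-0.04; interval -0.31 to 0.23). Nid1 fell by 0.67 (SE 0.11; adjusted p = 5.1e-06) and Nid2 rose by 0.40 (SE 0.08; adjusted p = 0.00019).

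The 6 genes raised by CHX were Lamb3, Loxl4, Col20a1, Col15a1, Nid2 and Loxl3. Genes on the other strand share exon bases with Col15a1, Nid2 and Loxl3, and a gene on the same strand with Col20a1. Reads in such stretches cannot be told apart. Loxl4, a lysyl oxidase, rose 4.16-fold, from 2.17, 2.39, 1.57 and 1.06 to 8.29, 7.75, 7.49 and 6.85 CPM (2.06, SE 0.16; adjusted p = 3.8e-11). Lamb3, a chain of the epithelial laminins, rose by 3.00 (SE 0.43; adjusted p = 1e-06) from a very low level. It went from 0.126 ± 0.132 to 1.06 ± 0.295 CPM (SD, n = 4 each), with 1 control library at 0. No 6 h control was above 0.309 CPM. Lamb3 passed the filter on low counts only through the libraries with CHX, where it is high, so its p-value adds no support. The change of Loxl4 was not lost under any alternative run. The libraries that stood apart did so in some genes. Col1a1 was at 97.9, 85, 160 and 27.3 CPM, Col3a1 at 33.1, 21.2, 65.8 and 8.2, and Lox at 14.5, 13.9, 27.5 and 7.55 in CHX replicates 1 to 4. In these 3 genes replicate 3 was the highest and replicate 4 the lowest. Among the other fibrillar collagens tested, Col1a2, Col5a1 (61, 61.4, 68.5 and 43.3 CPM), Col5a2 (356, 379, 417 and 338) and Col27a1 shared that order. So did Fn1, Lamc1, Col4a1 and Col4a2. Col2a1, Col5a3, Col11a1 and Col11a2 did not: Col2a1 lay between 73.8 and 76.3 CPM in the CHX libraries. Col11a2 was lowest in replicate 3 (4.5) and highest in replicate 4 (8.96).

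Col1a1 and Col3a1 did not pass the test with CHX (adjusted p = 0.299 and 0.847). Col1a2, at 165, 148, 221 and 92.2 CPM, fell by 0.60 (SE 0.17; adjusted p = 0.00337), and Fn1, at 996, 1030, 1130 and 873, by 0.44 (SE 0.12; adjusted p = 0.00173). Lox fell by 0.72 (SE 0.28; adjusted p = 0.0253), but its groups overlapped. That call was lost without 6 h control replicate 3 (adjusted p = 0.196), CHX replicate 1 (0.0584), CHX replicate 2 (0.0635) or CHX replicate 4 (0.107). Col4a4 fell by 0.41 (SE 0.16; adjusted p = 0.0254) and lost the call without control replicate 1 (0.1), control replicate 3 (0.0534) or CHX replicate 3 (0.0795). The calls of Col6a2, Col8a2, Col9a3, Lama2 and Col20a1 were each lost without 1 or more single libraries as well, among them 6 h control replicate 3 for all 5 (adjusted p = 0.282, 0.059, 0.165, 0.0829 and 0.0729). Other such libraries were CHX replicates 1, 2 and 4 for Col6a2 (0.0586 to 0.118) and CHX replicate 4 for Lama2 (0.0804). Those of Col8a2 were control replicates 1 and 2 and CHX replicates 1 and 3 (0.0791 to 0.151), and those of Col9a3 the same 4 and CHX replicate 2 (0.0608 to 0.127).

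**Figure D5:**
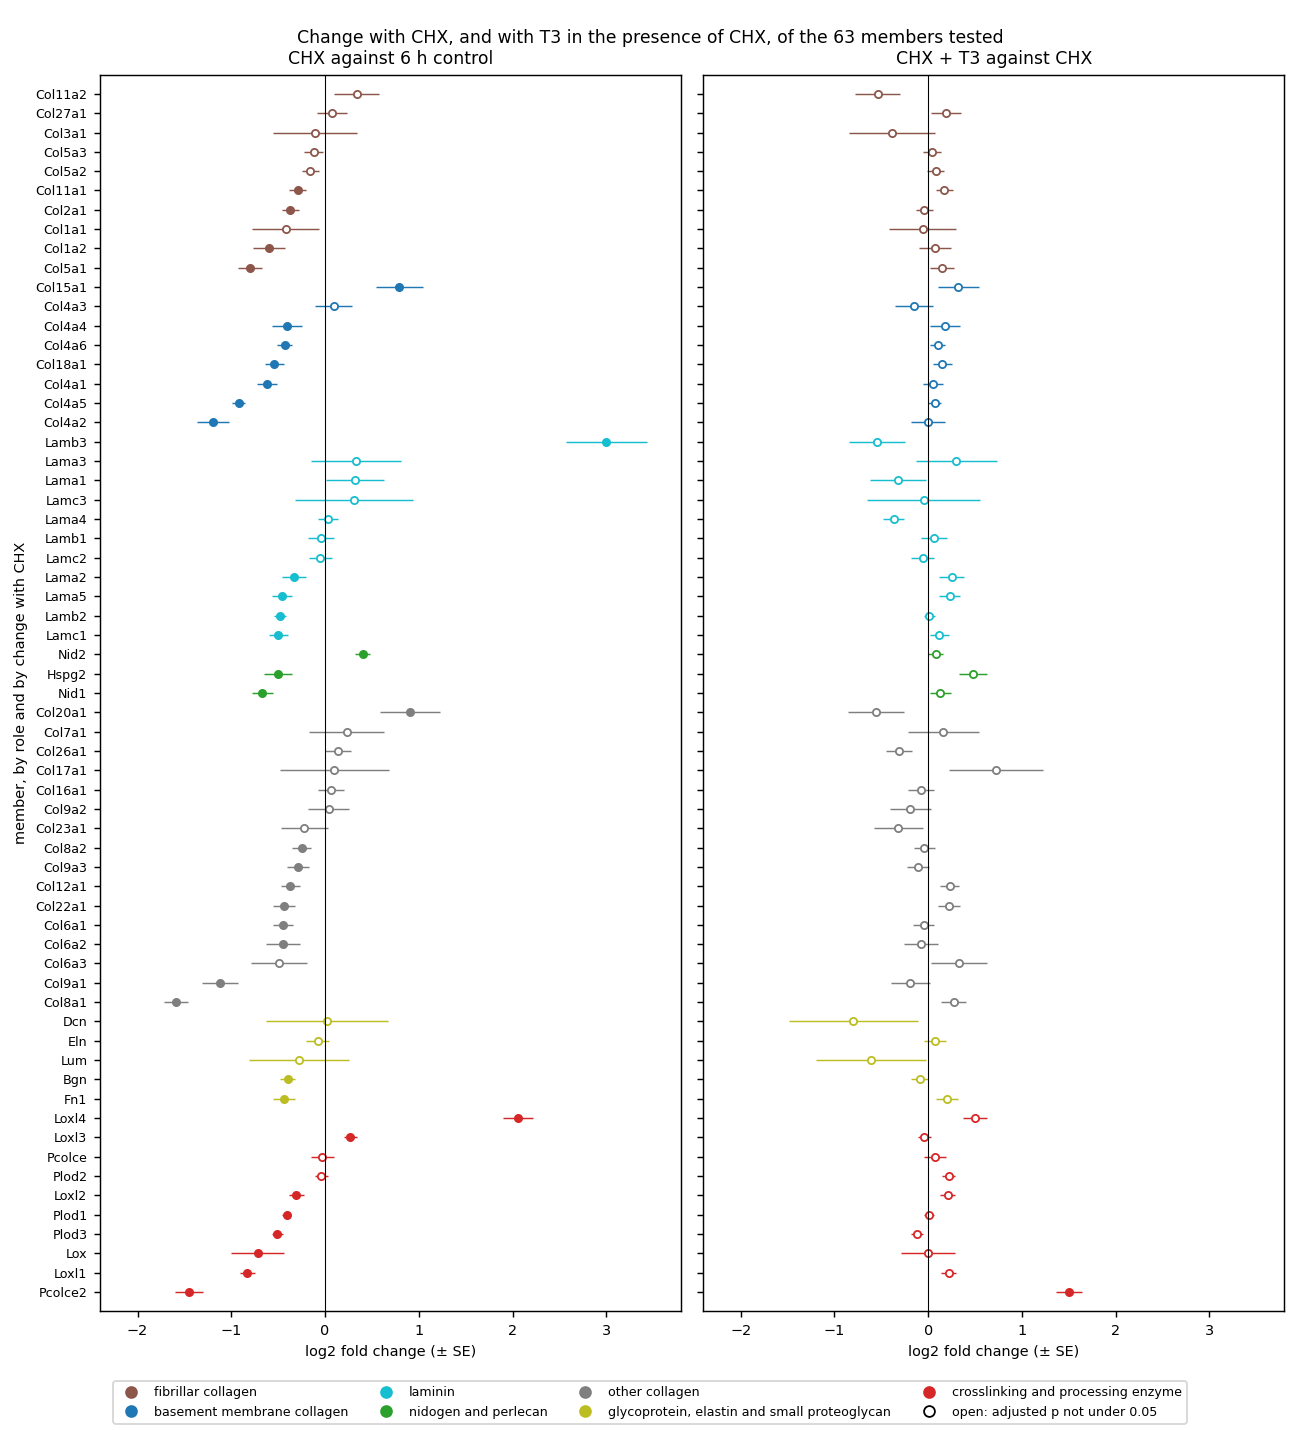
Log2 fold change with its SE for the 63 tested genes with CHX alone and with T3 in the presence of CHX, ordered by role, with filled points for an adjusted p under 0.05. On the left 32 points are filled below 0 and 6 above it, and on the right only Pcolce2 is filled, at 1.5.

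T3 in the presence of CHX raised 1 of the 63 genes, Pcolce2, and lowered none. Of all genes tested, 1.29% were called (1.16% higher and 0.131% lower; 89.9% of the calls were higher, against 49.4% with lane as a term), and at an unadjusted p under 0.05 this comparison held 8 of the 63 higher and 4 lower. DESeq2 called 2 higher and 0 lower. Pcolce2 was at 11.6, 14.3, 12.9 and 12 CPM with CHX and T3, against 5.61, 5.06, 3.83 and 3.4 with CHX alone. It rose 2.82-fold (1.5, SE 0.14; adjusted p = 2.3e-07), and this T3 effect differed from that without CHX by 0.14 (interval -0.23 to 0.51; adjusted p = 0.855). Its level with CHX and T3 overlapped that of the untreated 6 h controls (9.84 to 13.9 CPM). The call was kept under every alternative run.

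The other genes that T3 raised at 6 h did not pass in the presence of CHX. Plod2 was at 246, 236, 275 and 243 CPM with CHX and T3, above all CHX libraries (0.22, SE 0.07; adjusted p = 0.168). Col8a1 was at 36.6, 35.5, 42.3 and 37.6 CPM, again without overlap (0.27, SE 0.13; adjusted p = 0.396), and Loxl2 at 34.3, 34.8, 38.8 and 36.2 (0.21, SE 0.08; adjusted p = 0.297). The T3 effect with CHX minus that without was -0.32 (SE 0.1; adjusted p = 0.118) for Plod2, -0.30 (SE 0.18; adjusted p = 0.516) for Col8a1 and -0.13 (SE 0.12; adjusted p = 0.739) for Loxl2. This difference was called for 0 of the 63 genes, while 13 had an unadjusted p under 0.05, DESeq2 called 2, and 1.22% of all genes were called (0.584% higher and 0.634% lower). Loxl4, at 10.6, 11.1, 11.1 and 10.2 CPM with CHX and T3, did not pass (0.50, SE 0.13; adjusted p = 0.0553).

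Lane could move these counts, because only CHX replicate 4 shared lane 6 with the CHX and T3 libraries. A fit with lane as a term called 4 of the 63 genes higher and 1 lower. Of all 16087 genes tested it called 326 higher and 334 lower. Its step from lane 5 to lane 6 rests on CHX replicate 4. Within lane 6 that library alone stands for CHX, so a count of these genes is not given there. It has the lowest Col1a1 and Col3a1 of the CHX libraries, so lane and library cannot be told apart. Most other genes followed in each library overlapped between the 2 groups: with CHX and T3, Col1a1 was at 59.5, 94.5, 106 and 94.5 CPM, Col1a2 at 142, 180, 167 and 165, and Col3a1 at 11.7, 27.2, 29.1 and 28.9. Col4a1 was at 121, 143, 144 and 137 CPM, Col4a2 at 24.3, 29.1, 31.7 and 26, Lamb1 at 18.3, 21.8, 21.8 and 20.3, and Lox at 12.1, 17.7, 17.3 and 16. Lamc1, at 605, 619, 728 and 654 CPM, and Fn1, at 1060, 1140, 1300 and 1110, also overlapped with CHX alone. Loxl1 (mean 99.7 CPM with CHX and 116 with CHX and T3) and Plod3 (111 and 102) did not overlap. Nor did Hspg2 (349 and 486), Lama4 (20.2 and 15.6), Lama2, Lama5 and Col11a1. None of these genes passed the test (adjusted p = 0.135 to 0.462). How many of all genes tested lie apart in this way was not counted, so nothing is read from it.

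Between the 2 control groups, 24 h against 6 h, 18 of the 63 genes were higher and 19 lower, 58.7% in all. The shares of all genes tested were close to these, with 56.6% called, 28.2% higher and 28.4% lower. All 6 h controls were on lane 5 and all 24 h controls on lane 6, so time and lane cannot be told apart, and a fit with lane as a term gave 12 higher and 7 lower. That fit takes the step from lane 5 to lane 6 from CHX replicate 4 against CHX replicates 1 to 3, and so from 1 library that stood apart. Elastin went from 135 to 260 CPM (0.95, SE 0.12; adjusted p = 4.3e-07). Among abundant genes, Lamc1 (-0.88, SE 0.1), Col12a1 (-0.75, SE 0.1), Fn1 (-0.66, SE 0.12) and Lama5 (-0.64, SE 0.12) were lower at 24 h (adjusted p = 1.2e-07, 1.2e-06, 3.4e-05 and 4.9e-05). With lane as a term the change of Fn1 was -0.39 and that of Lama5 -0.40, and both lost the call. The enzymes split, with Plod2 (-0.71, SE 0.07) and Plod3 (-0.66, SE 0.06) lower and Plod1 (0.38, SE 0.05) higher at 24 h (adjusted p = 1.3e-08, 1.4e-09 and 1.2e-06). The T3 rise of Plod2 at 24 h thus started from a lower control level, and 24 h T3 (175 to 223 CPM) reached about the level of 6 h control (217 to 224 CPM).

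Genes that work with these proteins were followed in 4 lists. Of all genes tested, T3 raised 2.61% and lowered 1.16% at 6 h, and raised 4.41% and lowered 2.68% at 24 h. CHX alone raised 37% and lowered 30.6% of them. Of 23 tested genes for collagen processing and secretion, T3 raised 2 and lowered 1 at 6 h and raised 3 at 24 h. P4ha1, a catalytic subunit of prolyl 4-hydroxylase, which stabilises the triple helix, rose at both times (0.38, SE 0.06; adjusted p = 0.00045, and 0.57, SE 0.07; adjusted p = 2.4e-06). Its level went from 181 ± 5.69 to 236 ± 14 CPM (SD, n = 4 each) at 6 h. At 24 h Bmp1, the procollagen C-proteinase that Pcolce proteins assist, rose by 0.23 (SE 0.04; adjusted p = 0.00103) and P3h2, a prolyl 3-hydroxylase, by 0.44 (SE 0.13; adjusted p = 0.0323). With CHX alone P4ha1 rose (1.09, SE 0.06; adjusted p = 1.2e-13), while P4hb and the collagen-binding protein Sparc fell by 0.73 and 0.68 (SE 0.06 and 0.05), and 13 of the 23 were lower and 4 higher.

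Of 24 matrix receptor genes, T3 raised 2 and lowered 1 at each time. Itga7, the alpha chain of a laminin-binding integrin, rose at 6 h (0.31, SE 0.06; adjusted p = 0.00173) and 24 h (0.67, SE 0.06; adjusted p = 6.8e-08), from 55.8 ± 3.65 (SD, n = 4) to 88.7 ± 8.18 CPM (SD, n = 3) at 24 h. The proteoglycan Sdc3 fell by 0.37 at 24 h (SE 0.07; adjusted p = 0.00081). CHX alone lowered 14 of the 24 and raised 3, beside 30.6% lower and 37% higher of all genes. Dystroglycan (Dag1), a laminin receptor, went from 867 ± 61.1 to 326 ± 6.85 CPM (SD, n = 4 each; adjusted p = 3.8e-13). Of 17 genes for matrix degradation, 1 rose and 3 fell with T3 at 24 h. The gelatinase Mmp2 rose by 0.57 (SE 0.08; adjusted p = 1.3e-05). Of 18 genes of the TGF-beta pathway and its targets, T3 raised the latent TGF-beta binding protein Ltbp1 at 6 h (0.40, SE 0.07; adjusted p = 0.00132) and lowered the receptor Tgfbr2 at 24 h (-0.26, SE 0.07; adjusted p = 0.0199). CHX alone lowered 11 of the 18 and raised 7, beside 30.6% lower and 37% higher of all genes, with Ccn2, a matricellular target of the pathway, from 1080 ± 63.4 to 317 ± 18.8 CPM (SD, n = 4 each; adjusted p = 1.8e-16).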

How the data were processed

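The authors deposited raw counts of single 50 nt reads per Ensembl gene for each library. Per the submitters' processing notes these involved TopHat, Bowtie, HTSeq and the build GRCm38, without versions. The annotation release, counting mode and use of strand were not given in the sources used here. Per the labels' protocols the kit was one that does not mark strand. Of the 73 genes, 23 overlap exons of a gene on the other strand and 6 of a gene on the same strand. The 5 closing lines that name no gene were left out: 3.75 to 5.81% of all counts lay in no feature and 30.68 to 42.32% were for reads aligned more than once.

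Symbols came from GENCODE M21. Counts were fitted in edgeR 4.0.16 (R 4.3.3): filterByExpr with a minimum count of 10, TMM factors, 1 mean per group over 23 libraries, 17 residual degrees of freedom, a quasi-likelihood F test, and calls at a Benjamini-Hochberg adjusted p under 0.05 over 16087 genes. The SE of a change is its size over the root of its F value. CPM, to 3 significant digits, use TMM-scaled library sizes. Intervals are 95% (1.96 SE on either side).

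Values in every library are given for 9 preset genes and, per T3 or CHX comparison, the 8 called genes of at least 1 CPM with the smallest adjusted p. Dcn and Col11a2 were added after their values were seen. From each of 4 companion lists up to 4 genes with the smallest adjusted p could be named. The genes and lists were chosen with earlier results of these data known. Alternatives were DESeq2 1.42.0, RLE factors, no filter, only the compared groups, replicate blocks, lane, a length and GC trend, and leaving out libraries.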

Additional observations from a re-analysis of the deposited data

Results flagged for a closer look

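In 6 h control replicate 3, the highest of 4 libraries lay farther from the others than Dixon's 95% critical value allows in Col1a1 (238 CPM), Col1a2 (322 CPM), Col3a1 (67 CPM) and Lox (41 CPM). Col3a1 was flagged as well in 6 h T3 replicate 1 (46.4 CPM, the highest) and in 6 h CHX with T3 replicate 1 (11.7 CPM, the lowest). At 24 h, the controls held a high value for Loxl4 in replicate 1 (2.26 CPM) and for Plod3 in replicate 3 (108 CPM), and a low value for Loxl1 in replicate 4 (135 CPM). These 9 flags came from 110 groups of 4 libraries, and chance flags about 1 in 20 groups.

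The T3 effect differed between 24 h and 6 h, by a test of that difference in edgeR, for Loxl2 (0.64), Plod1 (0.33), Bgn (-0.60), Lama4 (-0.74) and Nid1 (-0.77), all on the log2 scale. All 5 calls were lost in some alternative run.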

How the results depend on the processing

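Counts below are of the 63 genes called. Leaving out 1 library at a time gave 3 to 5 for T3 at 6 h, 14 to 17 for T3 at 24 h, 1 for T3 with CHX, 31 to 41 for CHX alone, 33 to 39 for time in the controls, 2 to 8 for the T3 effect at 24 h minus 6 h, and 0 to 1 for the T3 effect with minus without CHX. Within a lane the count was 7 for T3 at 24 h and 3 for 24 h minus 6 h. No count within a lane is given for T3 with CHX or for with minus without CHX. Lane 6 held only 1 library with CHX alone. With lane as a term the counts were 19 for time in the controls, 5 for T3 with CHX, 9 for 24 h minus 6 h and 9 for with minus without CHX. For T3 with CHX, against 1, there were 2 without the filter, 5 with only the compared groups, 5 without the trend of gene length and GC, and 2 by DESeq2. For 24 h minus 6 h, against 5, there were 2 with only the compared groups, 10 with the trend removed, 10 with DESeq2 and 1 without 24 h control replicates 2 and 4. For with minus without CHX, against 0, there were 1 without the filter, 3 with only the compared groups, 4 with the trend removed, 2 with DESeq2 and 2 without those controls.

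Samples with the same number did not deviate together (no pair correlated over 0.1; for T3 at 6 h they ran from -0.058 to 0.001). A replicate block by number gave 3 genes for T3 with CHX and 1 for with minus without CHX. A block by the letter of the descriptions gave 3, 2 and, for 24 h minus 6 h, 9. No other count moved by over 1.5 times with a block. Single calls lost with a block were those of Dcn for T3 at 24 h (adjusted p = 0.0578 by number and 0.088 by letter), Lama4 for 24 h minus 6 h (0.0653 by number), Dcn for time, and Col8a2 and Col9a3 for CHX alone. For time in the controls, 2 changes reversed: Col11a2 with lane as a term (-0.11) and Dcn without 24 h control replicates 2 and 4 (-0.62). Over all genes, removing the length and GC trend moved the share of calls that were higher from 69.3 to 50.6% for T3 at 6 h and from 49.8 to 39.3% for time. Counts over all genes moved by over 1.5 times as well. For T3 at 6 h they went from 606 to 387 without 6 h control replicate 2, to 349 without 6 h T3 replicate 4, to 1008 with the trend removed and to 1191 when 6 h CHX replicate 4 and 24 h T3 replicate 1 were left out. For T3 at 24 h they went from 1140 to 401 with only the compared groups, 260 within lane 6 and 642 without 24 h control replicates 2 and 4. For T3 with CHX they went from 208 to 407 with only the compared groups, 660 with lane as a term, 350 with the trend removed and 340 with DESeq2. They fell to 138 without 6 h CHX + T3 replicate 3. For time they went from 9105 to 4414 with lane as a term. The range was 32 to 521, against 135, for 24 h minus 6 h, and 30 to 966, against 196, for with minus without CHX. Fits within lane 6 that have 1 library for CHX alone are left out of these counts. The causes were not tested. Alternatives kept 7 of the 17 calls at 24 h (Pcolce2, Loxl2, Col8a1, Col4a3, Nid1, Loxl1 and Col2a1), 3 of 4 at 6 h and 31 of 38 with CHX. They kept 13 of 37 for time in the controls and 0 of 5 for the T3 effect at 24 h minus 6 h. Genes under 1 CPM, such as Lamb3, rest on few counts.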
